A study of Bos indicus x Bos taurus with 17 samples.

Results

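The genes described are 10 subunits of the Polycomb group complexes, BMI1, PCGF2, RING1, RNF2, CBX2, CBX7, EZH1, EZH2, EED and SUZ12, chosen by gene symbol from the 21048 genes counted by RNA-seq in fetal bovine liver and skeletal muscle. All 10 are listed in both tables, on 1 line each. The fetuses were at about day 105 of gestation, labelled healthy, and were F1 hybrids of Bos indicus and Bos taurus (Nelore and Holstein breeds in the study's methods). ART-Normal fetuses (n = 4, replicates 1 to 4) were conceived by assisted reproductive technology, and Control-AI fetuses (n = 2, replicates 2 and 4) by artificial insemination. The study defines ART-Normal by a body weight below its overgrowth limit. Each of the 6 fetuses gave 1 liver and 1 muscle library, 12 in all. ART-Normal 4 is given by the labels and is not among the fetuses that the paper lists with their weights.

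Polycomb proteins keep developmental genes silent, and they work in a pair of complexes. Polycomb repressive complex 2 (PRC2) places methyl groups on histone H3 (the mark H3K27me3) through the enzymes EZH2 or EZH1, which need EED, a reader of the mark, and SUZ12, a scaffold. Polycomb repressive complex 1 (PRC1) attaches ubiquitin to histone H2A through the ligases RING1 or RNF2, which pair with a PCGF protein such as BMI1 (also PCGF4) or PCGF2. In its canonical form PRC1 also holds a CBX protein, such as CBX2 or CBX7, that binds H3K27me3. EZH2 is known as the form of dividing cells and EZH1 as the form of resting cells. BMI1 is known for silencing the CDKN2A locus, which keeps stem and progenitor cells cycling. HOX genes, which set position along the body, are classical targets of both complexes.

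On ARS-UCD1.2, the build of the counts, 4 of the 10 genes lie on chromosome 19: SUZ12 (chr19:18156522-18196231), PCGF2 (chr19:39328390-39339714), EZH1 (chr19:42754604-42786956) and CBX2 (chr19:52750889-52760270), all on the minus strand. BMI1 lies at chr13:23430480-23441040, RING1 at chr23:7395562-7399419 and RNF2 at chr16:66079569-66124316, on the plus strand. CBX7 (chr5:110589044-110608932), EZH2 (chr4:112024327-112081400) and EED (chr29:9265439-9296624) lie on the minus strand. The listed spans run from 3858 bp in RING1 to 57074 bp in EZH2. None of the 10 spans overlaps another listed gene on either strand (0 overlaps). Reads of unlisted transcripts or reads running on from a neighbour were not examined. Reads were counted over whole gene spans, introns included, and levels are therefore compared within a gene and never between genes.

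Total counts per library ranged from 18454088 to 43339598 in liver and from 12433300 to 23578362 in muscle, and the members held 102 to 9124 counts per library. The labelled tissues carried their markers. The summed level of 11 hepatocyte genes, led by AHSG and ALB, was 40948 to 364469 CPM (counts scaled to library size) in liver and 25.6 to 403 in muscle, and that of 15 skeletal muscle genes, led by MYH3 and MYH8, was 7.58 to 42.5 in liver and 22836 to 33081 in muscle. Liver also held erythroid genes, led by HBG (7945 to 26520 CPM, with every muscle library below these and the lowest at 97.1), and more macrophage and neutrophil genes (473 to 584 against 84.9 to 112). Muscle held more connective tissue genes, led by COL3A1 (20668 to 26971 against 555 to 1174), and endothelial genes (613 to 677 against 249 to 290). HBA1 of the erythroid list was not higher in liver, with a mean of 5.57 CPM in liver and 13.07 in muscle. TEK of the endothelial list was not higher in muscle, with a mean of 60.1 CPM in liver and 56.1 in muscle. Adipose genes were low in both tissues, with sums of 2.27 to 6.90 CPM. These lists moved with every tissue difference below, and their part in it was not tested. Control-AI 2 liver stood apart from the other liver libraries, with the highest hepatocyte and erythroid sums and a normalization factor of 0.755. ART-Normal 1 liver had the largest median distance of a gene from the other 5 liver libraries, 0.24 on the log2 scale, followed by Control-AI 2 liver with 0.22.

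The first comparison asked how the subunits differed between liver and muscle of the same fetuses. All 10 differed between the tissues. EZH2, EED and SUZ12 of PRC2 and RING1 and CBX7 of PRC1 were higher in liver, by 1.39-fold to 2.17-fold, while BMI1, PCGF2, RNF2 and CBX2 of PRC1 and EZH1 of PRC2 were lower in liver, with muscle levels 1.28-fold to 3.52-fold above those of liver. The count of 10 of 10 stands against a background in which 81.3% of the 12923 genes tested were called at an adjusted p of 0.05 or lower (40.6% higher and 40.7% lower in liver), so a difference between the tissues is the usual state of a gene here. The median absolute log2 fold change of all genes tested was 0.91, and PCGF2, CBX2 and SUZ12 were above it while the other 7 were below. Each of the 10 moved in the same direction in 6 of 6 fetuses, and the share of all genes that did so was not counted. The 6 liver libraries did not overlap the 6 muscle libraries for 7 members (PCGF2, CBX2, CBX7, EZH1, EZH2, EED and SUZ12), against 64.6% of all genes tested. All levels are CPM after TMM normalization over the 12 libraries, and all fold changes of this comparison are liver over muscle on the log2 scale with the standard error (SE) and the adjusted p of edgeR's quasi-likelihood test with Benjamini-Hochberg adjustment. In bulk tissue, fewer cells of a type and less RNA per cell cannot be told apart.

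**Figure D1:**
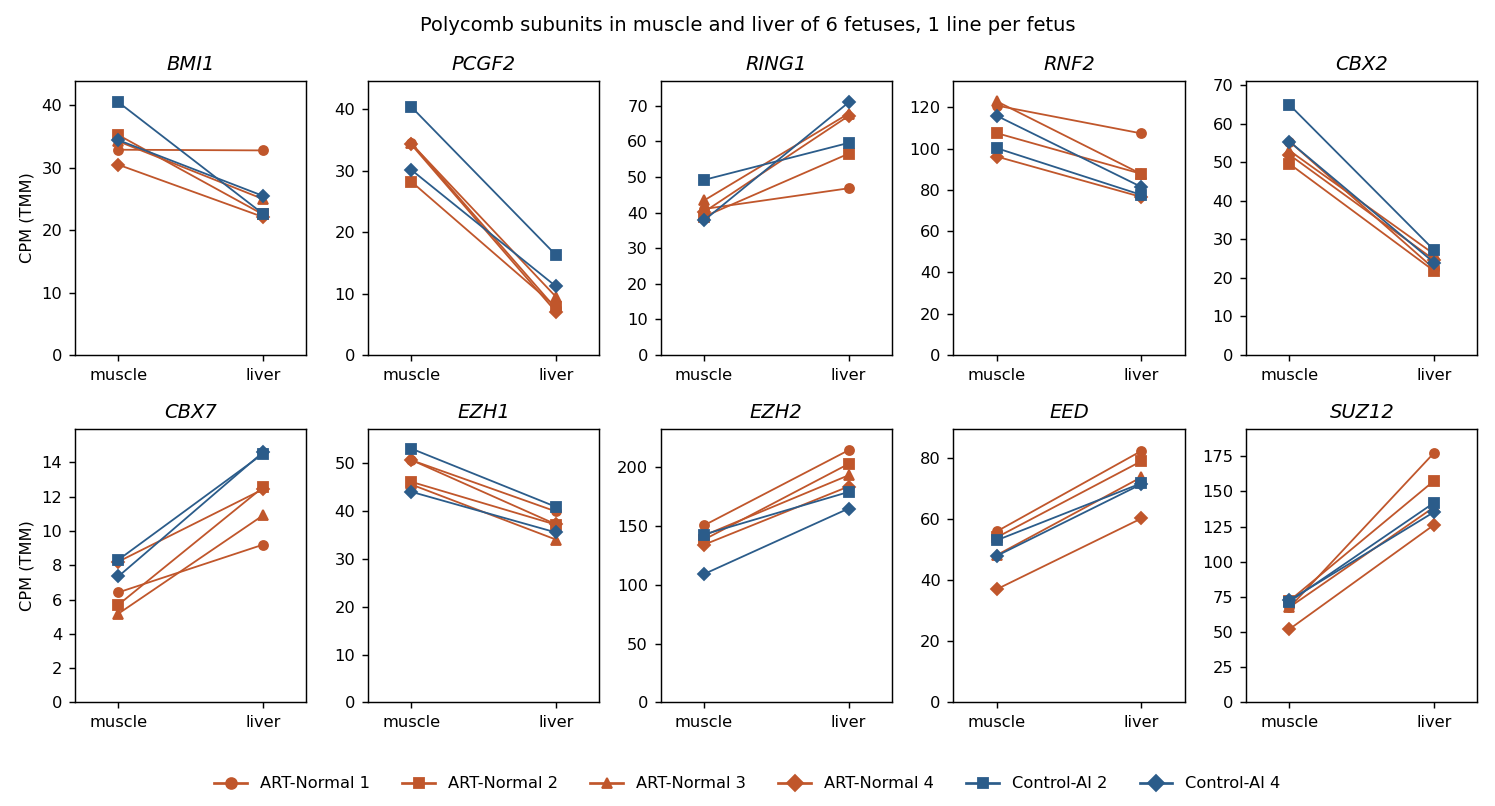
CPM (TMM scale, linear axis from 0) of the 10 Polycomb subunits in muscle and liver, with 1 line per fetus, ART-Normal fetuses in orange and Control-AI fetuses in blue. Lines rise toward liver for RING1, CBX7, EZH2, EED and SUZ12 and fall for the other 5, and the BMI1 line of ART-Normal 1 is almost flat (32.9 to 32.8).

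Among the PRC2 subunits, EZH2, the methyltransferase of dividing cells, had 215, 203, 193 and 184 CPM in liver of ART-Normal 1 to 4 and 179 and 165 in Control-AI 2 and 4. EZH2 in muscle was 151, 139, 142 and 134 CPM in ART-Normal 1 to 4 and 143 and 109 in the controls. Every liver library lay above every muscle library, with a log2 fold change of 0.48 (SE 0.08, adjusted p = 7.6e-05). EZH1, the methyltransferase of resting cells, had the opposite order, with 39.9, 37.2, 34.1 and 37.3 CPM in liver of ART-Normal 1 to 4 and 40.9 and 35.6 in the controls. EZH1 in muscle was 50.7, 46.1, 45.6 and 50.7 CPM in ART-Normal and 53.1 and 44.1 in the controls, again without overlap (log2 fold change -0.37, SE 0.08, adjusted p = 0.000698). The EZH1 difference was the most even of the members, ranging from -0.44 to -0.31 between fetuses.

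EED, which binds the mark and stimulates the enzyme, had 82.2, 78.9, 73.6 and 60.1 CPM in liver of ART-Normal 1 to 4 and 71.6 and 71.3 in the controls. EED in muscle was 55.9, 54.0, 48.2 and 37.0 CPM in ART-Normal 1 to 4 and 53.0 and 47.9 in the controls. The tissues did not overlap (log2 fold change 0.56, SE 0.11, adjusted p = 0.000255), and the 4 ART-Normal fetuses stood in the same order in both tissues. SUZ12, the scaffold, showed the largest rise in liver of the 10 members. SUZ12 CPM were 177, 158, 139 and 126 in liver of ART-Normal 1 to 4 and 142 and 135 in the controls. In muscle the SUZ12 levels were 67.6, 72.4, 67.7 and 52.1 CPM in ART-Normal and 71.7 and 72.7 in the controls, so that liver stood 2.17-fold higher (log2 fold change 1.12, SE 0.11, adjusted p = 1.99e-07). The lowest liver library of SUZ12 was 126 CPM and the highest muscle library 72.7.

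The 3 core subunits of PRC2 did not rise in one proportion. The log2 ratio of SUZ12 to EZH2 counts within a library was higher in liver than in muscle by 0.64 ± 0.21 (SD of the within-fetus difference, n = 6) and higher in 6 of 6 fetuses. That of SUZ12 to EED was higher by 0.55 ± 0.17, also in 6 of 6. That of EZH2 to EED differed by -0.09 ± 0.10, with 2 of 6 fetuses higher in liver. These 3 ratios were chosen after the levels were seen and are given without a test.

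Of the catalytic PRC1 subunits, RING1 was higher in liver and its paralog RNF2 higher in muscle. RING1 CPM were 46.8, 56.5, 67.8 and 67.2 in liver of ART-Normal 1 to 4 and 59.6 and 71.0 in the controls. RING1 in muscle was 41.0, 38.9, 43.4 and 40.2 CPM in ART-Normal and 49.2 and 37.8 in the controls. The 2 tissues overlapped by 1 library on each side, ART-Normal 1 liver (46.8) and Control-AI 2 muscle (49.2), and the log2 fold change was 0.56 (SE 0.11, adjusted p = 0.000216). RNF2 CPM were 107, 87.8, 87.7 and 76.6 in liver of ART-Normal 1 to 4 and 77.6 and 81.5 in the controls. RNF2 in muscle was 121, 108, 123 and 96.2 CPM in ART-Normal and 100.2 and 116 in the controls. Here ART-Normal 1 liver lay within the range of muscle, and the log2 fold change was -0.36 (SE 0.09, adjusted p = 0.00306), the smallest of the 10.

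Both PCGF partners were lower in liver, by very different amounts. BMI1 had 32.8, 22.5, 25.0 and 22.1 CPM in liver of ART-Normal 1 to 4 and 22.6 and 25.5 in the controls. BMI1 in muscle was 32.9, 35.2, 34.2 and 30.5 CPM in ART-Normal 1 to 4 and 40.5 and 34.4 in the controls. ART-Normal 1 liver was the library that overlapped muscle, and the difference between the tissues within a fetus ran from -0.005 in ART-Normal 1 to -0.84 in Control-AI 2 on the log2 scale (fitted log2 fold change -0.46, SE 0.11, adjusted p = 0.00174). PCGF2, also called MEL18 and the closest paralog of BMI1, had the largest difference of the 10. PCGF2 CPM in liver were 7.58, 7.85, 9.49 and 7.06 in ART-Normal 1 to 4 and 16.3 and 11.2 in Control-AI 2 and 4. In muscle PCGF2 was at 34.5, 28.2, 34.4 and 34.3 CPM in ART-Normal and 40.4 and 30.2 in the controls. The highest liver library (16.3) was well below the lowest muscle library (28.2), with a log2 fold change of -1.82 (SE 0.15, adjusted p = 6.73e-08), and 29.0% of all genes tested had a larger absolute log2 fold change.

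The CBX readers also went opposite ways. CBX2 CPM were 22.4, 21.8, 26.2 and 24.7 in liver of ART-Normal 1 to 4 and 27.2 and 23.9 in the controls. CBX2 in muscle was 55.4, 49.5, 53.0 and 51.9 CPM in ART-Normal and 64.9 and 55.4 in the controls, all above liver (log2 fold change -1.17, SE 0.08, adjusted p = 8.11e-09). The CBX2 difference had the lowest adjusted p of the 10. CBX7 had 9.20, 12.5, 10.9 and 12.4 CPM in liver of ART-Normal 1 to 4 and 14.5 and 14.6 in the controls. CBX7 in muscle was 6.42, 5.70, 5.18 and 8.21 CPM in ART-Normal and 8.32 and 7.36 in the controls. All 6 liver libraries lay above the 6 of muscle, with a log2 fold change of 0.85 (SE 0.14, adjusted p = 8.29e-05).

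The 10 calls and their directions held in each of the 15 alternative settings tried for the tissue comparison. Library size alone shifted the median of all genes tested to -0.13 on the log2 scale. With it the members ran from -1.97 for PCGF2 to 0.97 for SUZ12. The weakest adjusted p of any member in any setting was 0.0371, for RNF2.

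The ratio of 2 paralogs that fill the same place in a complex does not depend on library size, and gene length cancels when a ratio is compared between tissues. Of 4 such log2 ratios of counts (0.5 added), EZH2 over EZH1 and BMI1 over PCGF2 were higher in liver, and RNF2 over RING1 and CBX2 over CBX7 were higher in muscle, each in 6 of 6 fetuses. EZH2 over EZH1 averaged 2.34 ± 0.15 (SD, n = 6) in liver and 1.49 ± 0.13 in muscle, a within-fetus difference of 0.85 ± 0.07, or 1.80-fold, and was the most even of the 4. BMI1 over PCGF2 averaged 1.39 ± 0.54 in liver and 0.04 ± 0.18 in muscle. Its difference of 1.34 ± 0.60 ran from 0.47 in Control-AI 2 to 2.18 in ART-Normal 1, which made it the least even. RNF2 over RING1 averaged 0.50 ± 0.38 in liver and 1.41 ± 0.22 in muscle (difference -0.91 ± 0.38), and its libraries overlapped between tissues. CBX2 over CBX7 averaged 0.99 ± 0.24 in liver and 3.01 ± 0.23 in muscle, and the difference of -2.02 ± 0.24 was the largest of the 4. The libraries of the tissues did not overlap for EZH2 over EZH1, BMI1 over PCGF2 and CBX2 over CBX7. An exact two-sided permutation test over sign flips within fetuses gave p = 0.03125 for each ratio (0.03125 after Benjamini-Hochberg adjustment over the 4), which is the smallest p that 6 pairs allow. The levels of the same genes enter both these ratios and the tests above, so the ratios are not a separate set of evidence.

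**Figure D2:**
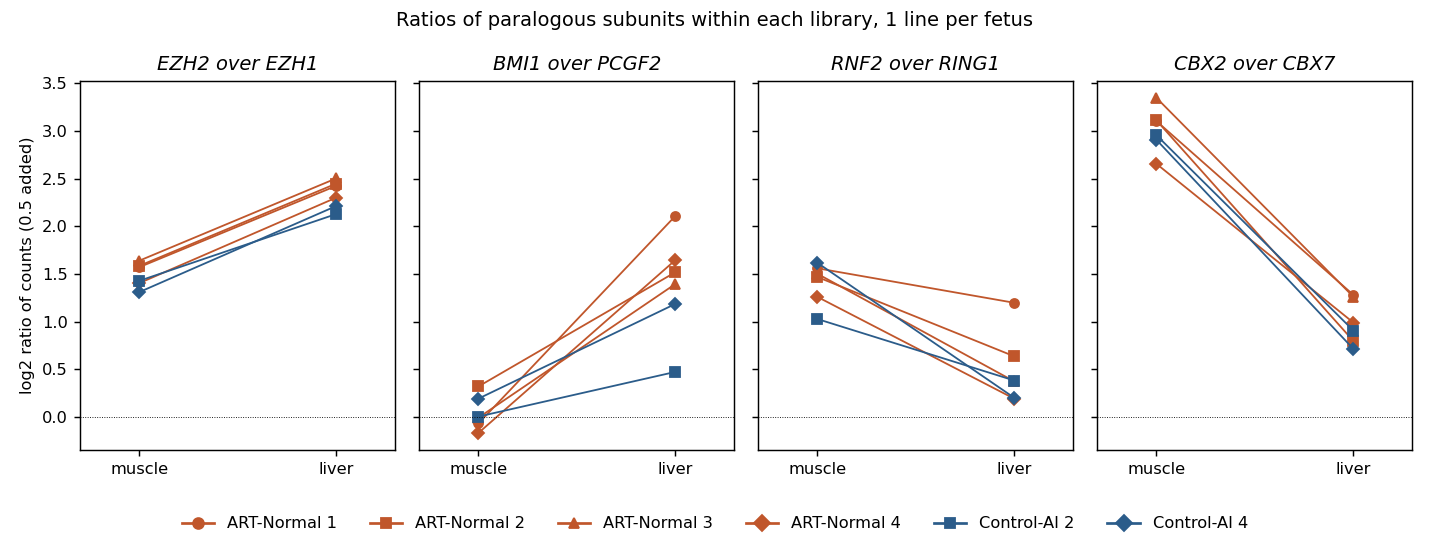
Log2 ratio of counts (0.5 added) of 4 pairs of paralogous subunits in muscle and liver, with 1 line per fetus. The lines of EZH2 over EZH1 run almost parallel (differences of 0.70 to 0.90), while those of BMI1 over PCGF2 fan out from 0.47 to 2.18.

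Other Polycomb genes were read from lists of accessory PRC1 subunits, accessory PRC2 subunits, the PR-DUB deubiquitinase that removes ubiquitin from H2A, and the H3K27 demethylases. Of 48 such genes 47 were in the tables and 46 passed the filter of 5 CPM. In liver against muscle, 16 were higher, 20 lower and 10 not called, with a median log2 fold change of -0.11 against 0.01 over all genes tested. Scaling by library size alone gave 12 higher and 23 lower. The 25 accessory PRC1 genes had 6 higher and 13 lower, the 8 accessory PRC2 genes 3 and 2, and the 11 PR-DUB genes 6 and 4. Of the 46 tested, 36 were called, and for 25 of these the libraries of the tissues did not overlap. Over all 12923 genes tested, 81.3% were called (40.6% higher and 40.7% lower in liver) and 64.6% did not overlap.

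The largest rises in liver among these were in USP7, a deubiquitinase found in a PRC1 variant (344 to 403 CPM in liver and 143 to 170 in muscle, log2 fold change 1.29, SE 0.07), and ASXL2, an activating partner of BAP1 in PR-DUB (155 to 201 and 73.9 to 95.2 CPM, 1.09, SE 0.08). L3MBTL2, a chromatin-binding subunit of a PRC1 variant, followed at 0.92 (SE 0.11), and HCFC1, a cofactor that binds BAP1, at 0.90 (SE 0.12). The largest falls in liver were in PHC1, which joins canonical PRC1 complexes to each other (5.96 to 13.9 CPM in liver and 36.3 to 53.1 in muscle, log2 fold change -2.06, SE 0.16), and PCGF3, a PCGF paralog of variant PRC1 (21.3 to 26.8 and 60.9 to 94.7 CPM, -1.66, SE 0.10). AEBP2, which binds SUZ12, followed at -1.51 (SE 0.10), and PHF19, a Polycomb-like protein that helps to recruit PRC2, at -1.40 (SE 0.15). The adjusted p of these 8 ran from 6.43e-10 for USP7 to 6.26e-06 for HCFC1. Of the demethylases that erase H3K27me3, KDM6A was higher in liver (log2 fold change 0.41, SE 0.10, adjusted p = 0.00175) and KDM6B lower (-0.73, SE 0.13, adjusted p = 0.000109).

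**Figure D3:**
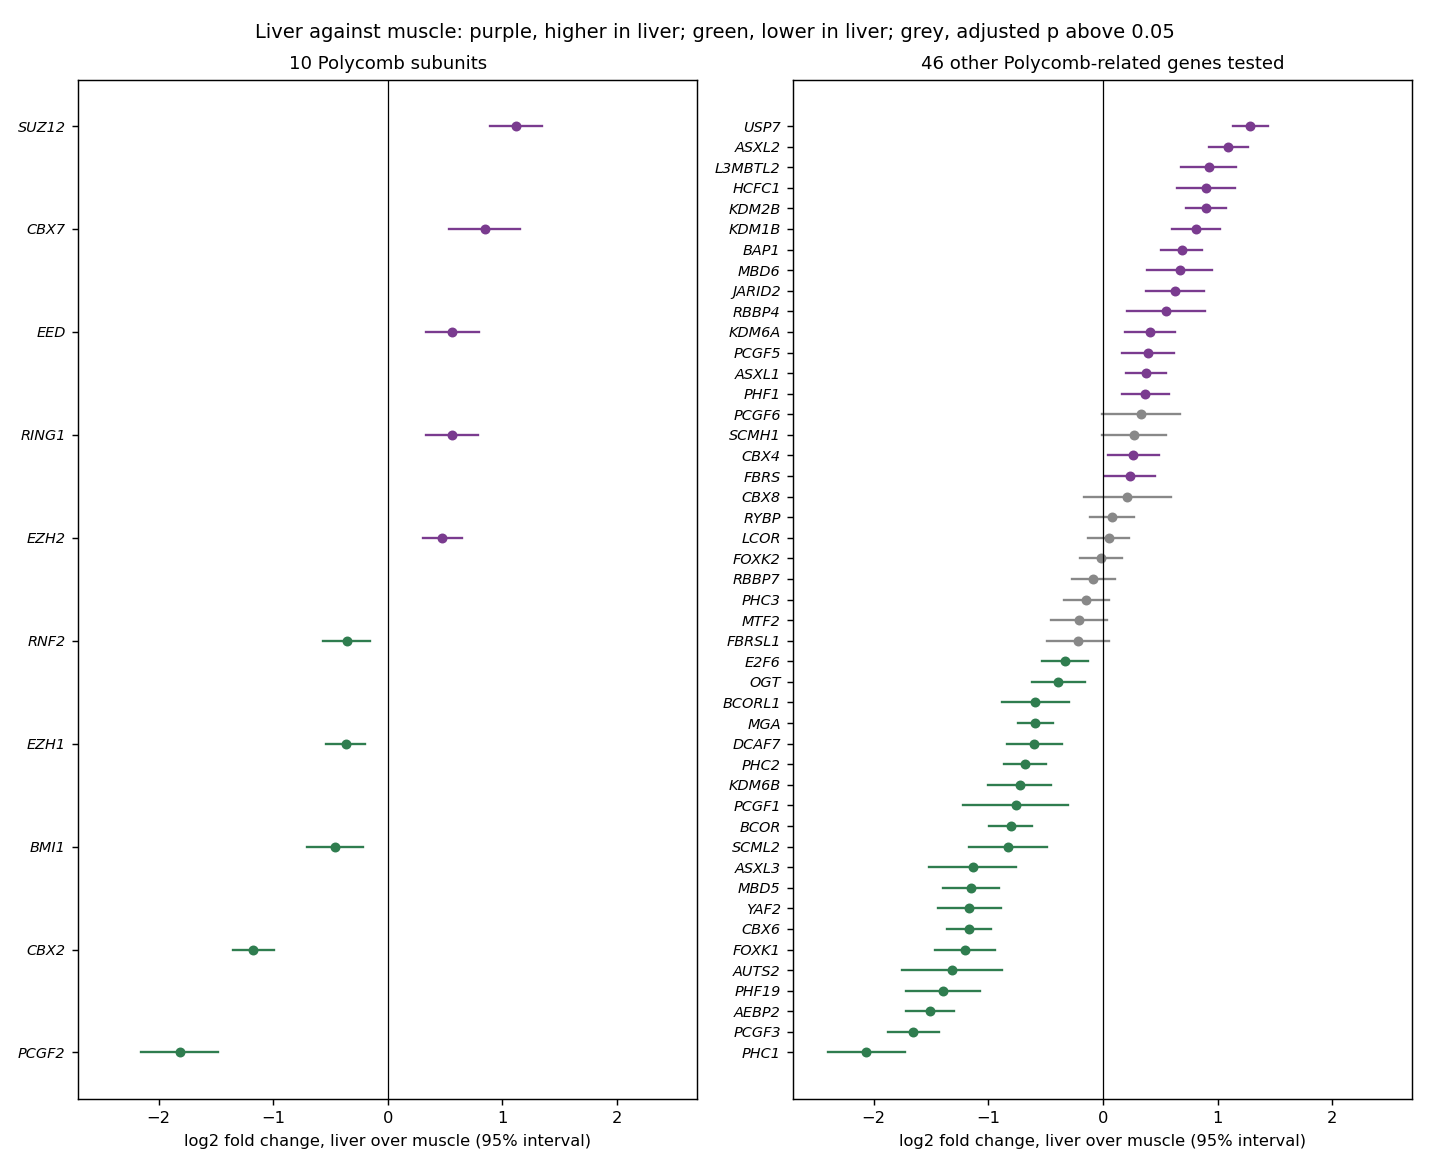
Log2 fold change of liver over muscle with 95% intervals for the 10 subunits (left) and the 46 other Polycomb genes tested (right), sorted by value. The 10 subunits run from -1.82 (PCGF2) to 1.12 (SUZ12), and the other genes from -2.06 (PHC1) to 1.29 (USP7).

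The targets for which these complexes are best known behaved as follows. CDKN2A and CDKN2B, the cell cycle inhibitors of the INK4 locus, had 0 to 9 counts in every library and were not tested. A count of 0, seen in 5 of the 24 values, allows up to 3 counts, or 0.0667 to 0.225 CPM depending on the library. Of 39 HOX genes, 16 passed the filter in muscle and 3 in liver, and a gene that passes only where it is high had to differ, so their 16 calls are no support for a direction. The summed HOX level was 49.1 to 55.6 CPM in liver and 420 to 556 CPM in muscle, and 14 of the 39 had 0 counts in all 6 liver libraries against 3 in all 6 muscle libraries. HOXC6 (29.1 to 46.3 CPM in muscle) and HOXC9 (20.3 to 38.7 CPM) had at most 1 count in any liver library. Of the 39 HOX genes, 33 had the higher median in muscle and 1 in liver. The 1 was HOXB2, with a median of 3.55 CPM in liver and 2.57 in muscle. HOXB3 (5.15 and 5.65 CPM) and HOXB4 (1.383 and 1.399 CPM) had close medians in liver and muscle. The 16 proliferation genes tested were all higher in liver (median log2 fold change 1.96, led by MCM5 with 2.87 and RRM2 with 2.83), and their summed level was 3784 to 4390 CPM in liver and 876 to 963 in muscle. This list moved in the direction of EZH2, EED, SUZ12, RING1 and CBX7. It moved against EZH1, BMI1, PCGF2, RNF2 and CBX2, and its part in those differences was not tested.

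The second comparison asked whether conception by ART changed the subunits within each tissue. In muscle 0 of 10 members were called by edgeR's quasi-likelihood test, and 0 had an unadjusted p under 0.05. The background was 0.00855% of 11695 genes called (1 gene) and 9.19% with an unadjusted p under 0.05. Log2 fold changes of ART-Normal over Control-AI ran from -0.29 for CBX7 (95% interval -0.82 to 0.24) to 0.17 for EZH2 (-0.15 to 0.48). RNF2 (0.05) was the other member above 0, so that 2 of 10 were above 0 against 50.1% of all genes tested. CBX2 (-0.19), SUZ12 (-0.15), PCGF2 (-0.10), RING1 (-0.09), EED (-0.05) and EZH1 (-0.0046) were below it, each with an interval that includes 0. The summed level of 7 connective tissue genes in muscle was also lower in every ART-Normal library (20668 to 24432 CPM) than in either control (25876 and 26971 CPM), and its part in these values was not tested. BMI1 was at -0.17 (-0.50 to 0.16), from 30.5 to 35.2 CPM in ART-Normal and 34.4 and 40.5 in the controls. For no member did the ART-Normal and control libraries of muscle stay apart (0 of 10, against 16% of all genes tested). The likelihood ratio test and DESeq2 also called 0 members in muscle.

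In liver 0 of 10 members were called as well, against 0% of 11304 genes called and 8.39% with an unadjusted p under 0.05. The likelihood ratio test and DESeq2 called 0 members in liver too. PCGF2 was the only member whose unadjusted p was under 0.05, and it missed the threshold in edgeR's quasi-likelihood test after Benjamini-Hochberg adjustment (adjusted p = 0.469). Its 4 ART-Normal libraries (7.06 to 9.49 CPM) lay below both controls (11.2 and 16.3), at a log2 fold change of -0.79 (SE 0.22, 95% interval -1.29 to -0.28). The size rested on Control-AI 2. Without that library, which also had the highest hepatocyte sum (364469 CPM, while ART-Normal libraries had 40948 to 66943 and Control-AI 4 had 73874), the value was -0.47 (adjusted p = 0.999). Without Control-AI 4 it was -1.05 and passed the threshold (adjusted p = 0.0434), with the lone control assumed to vary like the ART-Normal libraries.

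CBX7 in liver also lay below the controls in all 4 ART-Normal libraries (9.20 to 12.5 against 14.5 and 14.6 CPM, log2 fold change -0.37, 95% interval -0.82 to 0.07, adjusted p = 0.59). EZH2 lay above both controls in all 4 (184 to 215 against 165 and 179 CPM, log2 fold change 0.20, interval -0.09 to 0.48, adjusted p = 0.619). The proliferation sum stood apart in the same direction in these liver libraries, at 3990 to 4390 CPM in ART-Normal and 3784 and 3911 in the controls, and its part in the EZH2 difference was not tested. The 16 proliferation genes were mixed in liver, with 11 log2 fold changes above 0 and 5 below, from -0.35 to 0.39. The 3 of 10 members without overlap (PCGF2, CBX7 and EZH2) compare with 18.5% of all genes tested in liver (9.02% with ART-Normal above and 9.51% with ART-Normal below). For BMI1 the log2 fold change in liver was 0.08 (interval -0.36 to 0.51), with ART-Normal 1 at 32.8 CPM and the other 5 libraries between 22.1 and 25.5. RNF2 (0.17, interval -0.17 to 0.50), SUZ12 (0.10, -0.23 to 0.44) and EED (0.03, -0.30 to 0.37) also had intervals that include 0. Scaling by library size alone moved the median of all genes tested in liver to 0.21. Under it RING1, CBX2 and EZH1 turned from values below 0 (-0.14, -0.11 and -0.05) to values above 0 but below that median (0.050, 0.10 and 0.17).

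**Figure D4:**
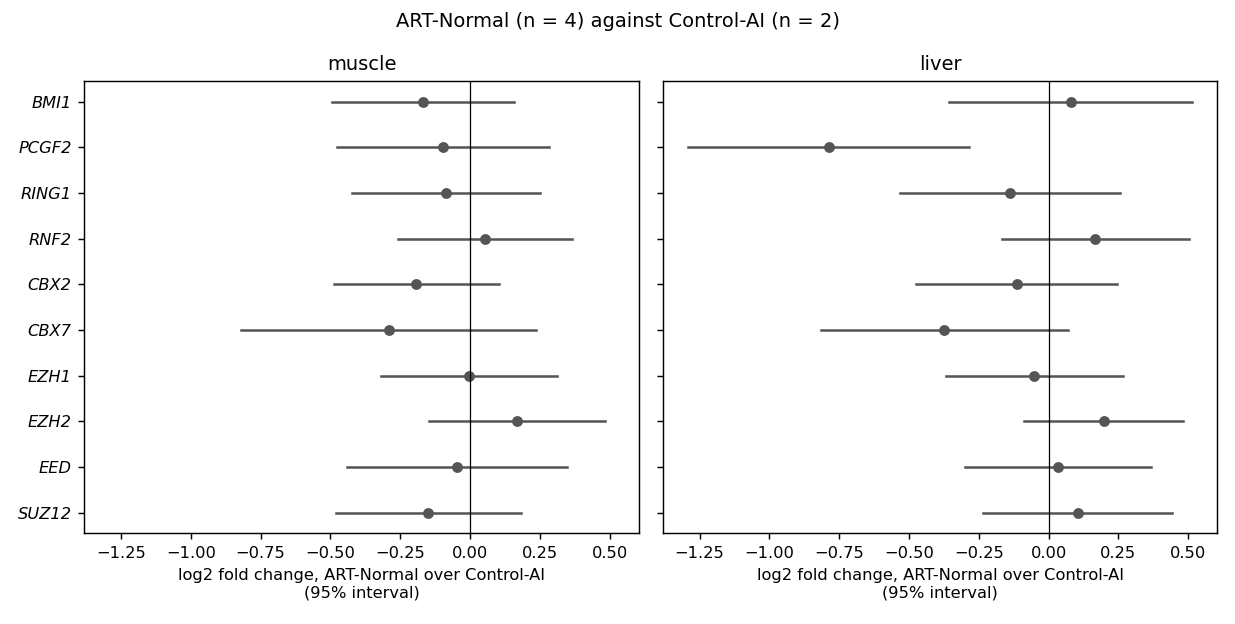
Log2 fold change of ART-Normal (n = 4) over Control-AI (n = 2) with 95% intervals for the 10 subunits in muscle (left) and liver (right). In liver the interval of PCGF2 (-1.29 to -0.28) does not reach 0, while the other 19 intervals include it.

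The interaction of tissue and conception, which tests whether the ART difference itself differed between liver and muscle, called 0 of 10 members, against 0% of 12923 genes called and 5.5% with an unadjusted p under 0.05. The likelihood ratio test also called 0 members. PCGF2 was the member farthest from 0 (interaction -0.67 on the log2 scale, SE 0.27, edgeR adjusted p = 0.857). SUZ12 (0.27) and BMI1 (0.26) had the highest values, RNF2, EED, CBX2 and EZH2 lay between 0.04 and 0.13, and EZH1, RING1 and CBX7 between -0.07 and -0.03, all 9 with intervals that include 0.

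Among the paralog ratios, 2 stood apart between the groups in liver. EZH2 over EZH1 was 2.30 to 2.50 in ART-Normal and 2.13 and 2.21 in the controls (difference 0.25), and BMI1 over PCGF2 was 1.39 to 2.11 in ART-Normal and 0.47 and 1.19 in the controls (difference 0.84). The proliferation sum given above separated the same liver libraries in the direction of EZH2 over EZH1, though 5 of its 16 genes had values below 0. Its part was not tested. Both ratios reached the smallest p of the exact permutation test over the 15 splits of 6 libraries, p = 0.0667 (0.133 after adjustment over 4 ratios), so the design could not pass 0.05. Without Control-AI 2 the BMI1 over PCGF2 difference was 0.48. The other liver ratios and all 4 in muscle overlapped between the groups.

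The accessory genes were not called in either tissue (0 of 46 in muscle, where 4 had an unadjusted p under 0.05, and 0 of 44 in liver, where 2 had). Values above 0 were seen for 35 of 46 in muscle and 30 of 44 in liver, against 50.1% and 51.2% of all genes tested.

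The last question was how the members varied between fetuses, which was looked at after the levels were known and is described without a test. ART-Normal 4 was the lowest of the 6 libraries in both tissues for 4 members (BMI1, RNF2, EED and SUZ12), against 4.96% of all genes tested. For EED it stood 0.32 below the mean of the other 5 in liver and 0.48 below in muscle on the log2 scale, and for SUZ12 0.24 and 0.43 below. In liver, ART-Normal 1 was the highest library for 5 members (BMI1, RNF2, EZH2, EED and SUZ12) and the lowest for RING1 and CBX7, and it also had the highest proliferation sum (4390 CPM, against 3784 to 4008 in the other 5). In muscle, Control-AI 2 was the highest for 6 members (BMI1, PCGF2, RING1, CBX2, CBX7 and EZH1), and it was the library of lowest depth. It also held the highest hepatocyte sum of the muscle libraries, 403 CPM against 25.6 to 67.7 in the other 5. Its median distance of a gene from the other 5 muscle libraries, 0.21 on the log2 scale, was the largest in muscle (0.13 to 0.17 in the others). The part of depth, hepatocyte sum and this distance in these levels was not tested. The share of all genes for which ART-Normal 1 liver or Control-AI 2 muscle was highest was not counted. The steadiest members in liver were EZH1 and EZH2, with a standard deviation among the 4 ART-Normal fetuses of 0.09 and 0.10 on the log2 scale against a median of 0.18 over all genes. In muscle CBX2, RING1 and EZH2 were the steadiest (0.07 each, median of all genes 0.16), while CBX7 and EED were the most variable (0.27 each).

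**Figure D5:**
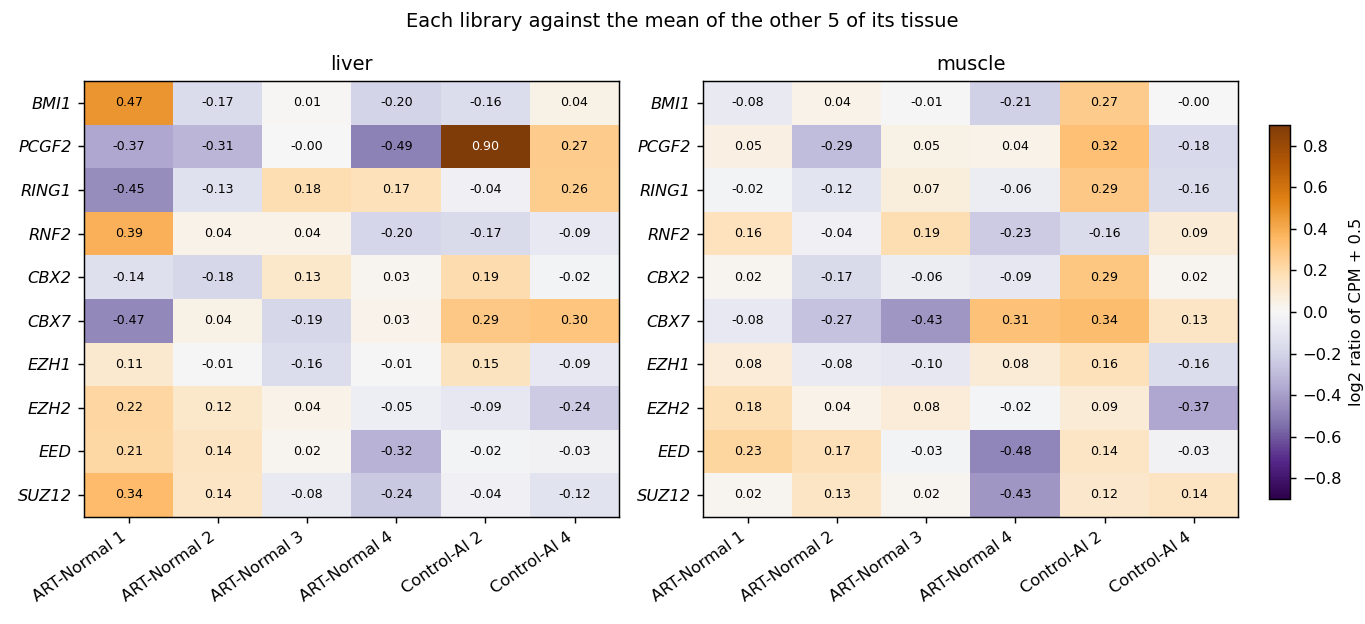
Log2 ratio of each library to the mean of the other 5 libraries of its tissue (CPM plus 0.5) for the 10 subunits, in liver (left) and muscle (right), with values printed in the cells. ART-Normal 4 is below 0 for BMI1, RNF2, EED and SUZ12 in both tissues, and the largest value is that of PCGF2 in Control-AI 2 liver (0.90).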

How the data were processed

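RNA-seq of liver and skeletal muscle from 6 bovine fetuses was used. By the labels, libraries were made from poly(A) RNA with strand kept and read from both ends at 150 bp, and the submitters' processing notes name HISAT2 2.1.0, featureCounts and ARS-UCD1.2. How strand was counted is not given in the sources used here. The authors deposited 1 table of raw counts for each tissue, not normalized and taken over whole gene spans, and 9 gene identifiers are on more than 1 line and were kept as listed. In each tissue 7 deposited count columns were left unused, and kidney was not analysed here. Tables of the authors' own comparisons (log2 fold change, log2 CPM, likelihood ratio, p-value and FDR per gene) were not used.

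From the counts, edgeR 4.0.16 in R 4.3.3 gave TMM-normalized CPM, log2 fold changes and two-sided quasi-likelihood p-values with Benjamini-Hochberg adjustment over all genes tested, at a threshold of 0.05. A gene was tested if all libraries of some group reached 5 CPM. The 4 ART-Normal and the 2 Control-AI fetuses were compared in each tissue without covariates, liver was compared with muscle with conception as a covariate, and the interaction was tested in 1 fit over 12 libraries. Each standard error is the fold change (log2) divided by the square root of its F statistic. Replicates are separate fetuses. No 2 libraries of a group agreed within sampling noise. Paralog ratios used counts plus 0.5 and exact permutation tests. Alternatives were RLE, upper quartile and library size scaling, other filters, the likelihood ratio test, DESeq2 1.42.0, ART-Normal 1 to 3, replicate blocks and leaving out each library or fetus. The quasi-likelihood fits within each tissue and between the tissues were tried on simulated counts. The permutation tests were tried on inputs with known answers, and the interaction was not simulated.

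The members and all gene lists were chosen with earlier results of these data known. All 10 members are named in each comparison. Of the other Polycomb genes, the 4 with the largest rise and the 4 with the largest fall in liver were named, among those called and without overlap of the tissues, both demethylases as the members of a short list, and of the HOX and proliferation lists the 2 most changed each way. HOXB2, HOXB3 and HOXB4 were named as HOX genes with a median above or close in liver. For the cell type lists the most abundant genes are named, with HBA1 and TEK, which did not go with their lists. The liver and muscle samples are paired by fetus, since both came from the same animal. The deviations from the group mean of the liver and muscle library of a fetus correlated across genes at r = 0.30, 0.06, 0.09 and 0.43 in ART-Normal 1 to 4 and 0.51 in the controls, which mirror each other. Python 3.11.15 with Matplotlib 3.10.9 drew the plots.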

Additional observations from a re-analysis of the deposited data

Results flagged for a closer look

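One value stood far from the others of its group by Dixon's criterion, among 28 groups of 4 values examined (10 members and 4 ratios in ART-Normal liver and in ART-Normal muscle), where chance flags about 1 group in 20. PCGF2 in muscle of ART-Normal 2 was 28.2 CPM, while ART-Normal 1, 3 and 4 had 34.5, 34.4 and 34.3. The level of Control-AI 4 muscle, 30.2 CPM, lay between them.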

How the results depend on the processing

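In liver against muscle, all 10 members stayed called in the same direction in each of the 15 alternatives, and a replicate block for the fetus gave 10937 genes, all 10 members and 40 other Polycomb genes (36 without it). That block changed no other call of a member. The count of HOX genes called moved from 16 to 27 without a filter and to 5 with at least 10 counts in every library. The 4 paralog ratios kept their direction without each fetus in turn (EZH2 over EZH1 0.84 to 0.88, BMI1 over PCGF2 1.18 to 1.52, RNF2 over RING1 -1.02 to -0.81, CBX2 over CBX7 -2.09 to -1.97), where 5 pairs allow no p below 0.0625.

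In ART-Normal against Control-AI, the counts over all genes depended on the setting, and the cause was not tested. Muscle (1 gene) gave 120 with the likelihood ratio test, 106 with DESeq2, 0 with ART-Normal 1 to 3, 90 with the replicate block and 0 to 1327 without a library. Liver (0 genes) gave 6 with library size alone, 89 with the likelihood ratio test, 56 with DESeq2, 2 with ART-Normal 1 to 3, 6 with the replicate block, 4 with both tissues in one fit and 0 to 830 without a library. The interaction (0 genes) gave 98 with the likelihood ratio test and 0 to 232 without a fetus. The highest counts, 1327, 830 and 232, came without Control-AI 4. Members called in liver ranged from 0 to 1 without a library, the 1 being PCGF2 without Control-AI 4 (range of its log2 fold change -1.05 to -0.47). In every other setting 0 members were called in these 3 comparisons.

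Log2 fold changes near 0 changed sign. In muscle these were EZH1 (0.0094 without a filter, 0.0037 with at least 10 counts, 0.0016 with the block), EED (0.066 with ART-Normal 1 to 3) and RNF2 (-0.084 with the block). In liver they were RING1, CBX2 and EZH1 with library size alone (0.050, 0.10 and 0.17) and BMI1 and EED with the block (-0.11 and -0.057). In the interaction CBX7 was 0.021 with ART-Normal 1 to 3. Without a library, ranges crossed 0 in muscle for PCGF2 (-0.29 to 0.12), RING1 (-0.26 to 0.11), RNF2 (-0.055 to 0.17), EZH1 (-0.13 to 0.13), EZH2 (-0.0055 to 0.37), EED (-0.14 to 0.066) and the ratios BMI1 over PCGF2 (-0.18 to 0.015) and RNF2 over RING1 (-0.17 to 0.42). They did so in liver for BMI1 (-0.060 to 0.16), CBX2 (-0.21 to 0.0021), EZH1 (-0.16 to 0.075) and EED (-0.020 to 0.12), and in the interaction for RING1 (-0.33 to 0.26), CBX7 (-0.18 to 0.021) and EZH2 (-0.071 to 0.16). Replicate numbers 2 and 4 occur in both groups for different fetuses and do not pair them (correlations of deviations 0.02 and -0.11 in liver, -0.0034 and -0.16 in muscle).

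With 2 controls, and the control arm at 1 library when either was left out, the ART comparisons are limited by the number of fetuses. Tissue composition and level per cell cannot be told apart in any comparison.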
